A study of Mus musculus with 8 samples.

Results

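The cytochrome P450 genes of mouse lung were described across mepenzolate and vehicle treatment at 7 h and 25 h after dosing. Members were all genes with a symbol of the form Cyp, family number, subfamily letters and gene number, on a probe annotated to 1 gene. This gave 82 of the 19937 genes named on the array, each measured by 1 probe. Probes annotated to several genes were not used, which left out 7 probes that list a P450 symbol. The symbol pattern also leaves out 5 P450 symbols with another ending, such as Cyp51. Of the 82 members, 33 had a mean value of 6 or more over the 8 arrays on the log2 scale, and 49 lay below. The same 33 members were bright enough to be tested.

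RNA came from whole lung of mice that received mepenzolate, a muscarinic receptor blocker, in phosphate-buffered saline into the trachea, or vehicle. The labels' protocol places the dosing under anesthesia with chloral hydrate at 500 mg/kg. The 4 groups were vehicle at 7 h, mepenzolate at 7 h, vehicle at 25 h and mepenzolate at 25 h, with 2 arrays each. Strain, age, sex, mepenzolate dose and the clock time of sampling are not given in the sources used here, so time since dosing and time of day cannot be told apart. Whether both arrays of 1 group hold RNA of different animals is not stated, and p-values then reflect only how far these samples scatter, possibly for technical reasons.

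Cytochrome P450 enzymes are heme proteins that insert oxygen into their substrate. Most microsomal members draw electrons from P450 reductase, and mitochondrial members from adrenodoxin. Families CYP1 to CYP3 mainly oxidise foreign compounds, CYP4 enzymes hydroxylate fatty acids and leukotrienes, and the higher-numbered families act on sterols, steroid hormones, retinoic acid and vitamin D. In lung the club cells of the airway lining are rich in P450 enzymes, which is why inhaled or circulating compounds that P450s activate can injure these cells selectively.

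All arrays carried lung markers. Surfactant protein C, Sftpc, ranged from 13.49 to 13.56, the club cell secretoglobin Scgb1a1 from 13.23 to 13.49 and Ager of alveolar type 1 cells from 12.30 to 12.49. The second mepenzolate array at 7 h stood apart in several lists. Its albumin value (Alb) was 8.93, against 5.94 to 6.39 on the others. Values below are given in the order vehicle 7 h, mepenzolate 7 h, vehicle 25 h and mepenzolate 25 h, array 1 before array 2. In that order the mean deviation of 11 club cell markers from their 8-array means was 0.21 and 0.37, -0.04 and -0.54, 0.01 and -0.05, and -0.03 and 0.08. For 10 ciliated cell markers it was -0.0039 and 0.09, 0.14 and -0.42, 0.08 and -0.11, and 0.22 and 0.01, and for 7 liver markers -0.19 and -0.03, -0.15 and 0.70, -0.03 and -0.07, and -0.18 and -0.04. The club cell list was uneven on the second mepenzolate array at 7 h. Ltf read 6.42 there (8-array mean 8.04), Bpifa1 9.32 (10.58) and Tff2 7.26 (8.17). Scgb1a1 read 13.30 (13.30), Cldn10 7.47 (7.63), Pon1 10.50 (10.63) and Krt15 6.55 (6.45). In whole tissue, fewer cells of a type and less RNA per cell cannot be told apart.

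**Figure D1:**
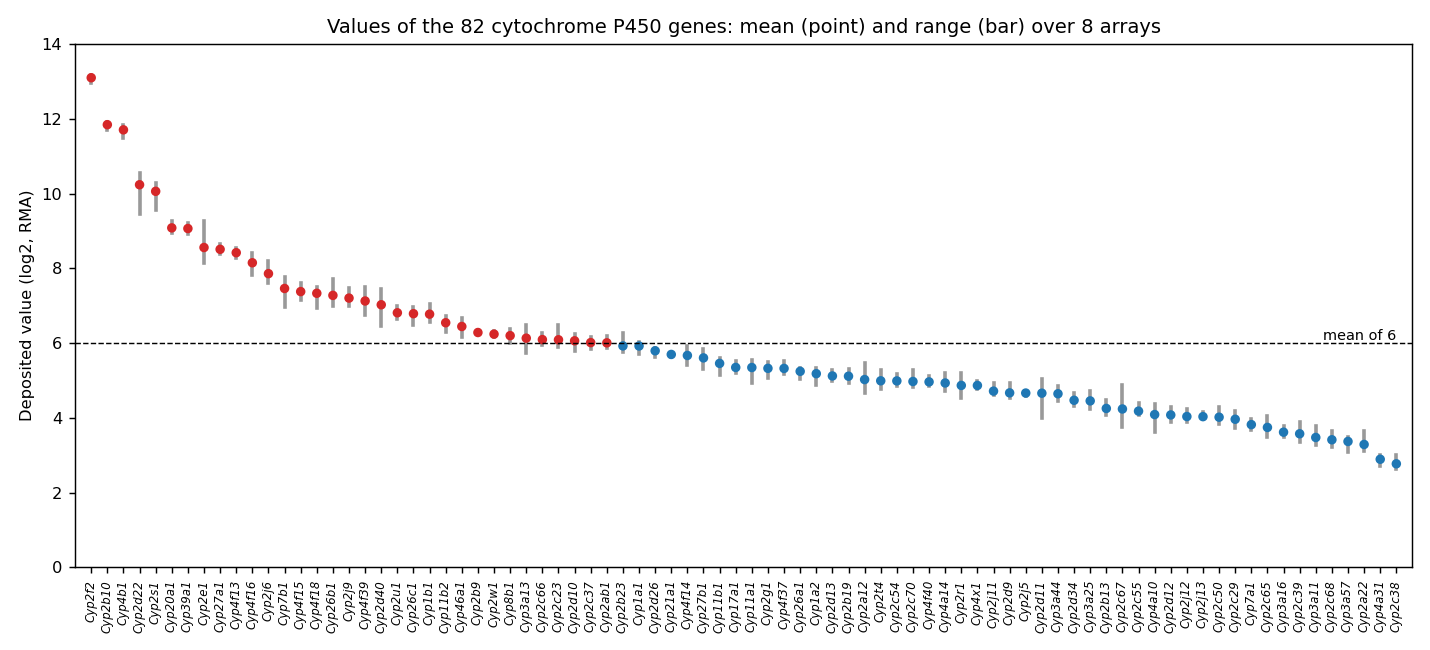
Mean (point) and lowest to highest value (bar) of the 82 P450 genes over the 8 arrays, in log2 RMA units on an axis from 0, ordered by mean. Red points are the 33 genes with a mean of 6 or more and blue points the 49 below. The longest bars above 6 are those of Cyp2e1 (8.14 to 9.27) and Cyp2d22 (9.46 to 10.55), and Cyp2f2 spans 12.96 to 13.16.

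The 33 members with a mean of 6 or more covered 10 of the 11 roles into which the family was divided. They were 10 of 23 CYP2 members outside the 2C, 2J, 2R and 2U subfamilies, 6 of 13 CYP4 members, 5 of 6 sterol and bile acid members, 3 of 7 CYP2J and CYP2U members, 3 of 13 CYP2C members and 2 of 3 retinoic acid members. The CYP1 family (1 of 3), CYP3A (1 of 6), steroid hormone synthesis (1 of 5) and the orphan Cyp20a1 had 1 each. Neither vitamin D enzyme reached 6, with Cyp27b1 at 5.60 and Cyp2r1 at 4.87. A level of 6 is a line across a continuous range. It lies below the array medians of 6.70 to 6.77, and a mean of 6 does not show that a gene is expressed in lung. Just above it lay Cyp2ab1 (mean 6.01) and Cyp2c37 (6.01), and just below it Cyp2b23 (5.92) and Cyp1a1 (5.92). Values of different genes come from different probes and do not rank the genes by abundance. P450 paralogs of 1 subfamily share long stretches of sequence, and how far a probe reads its neighbours was not tested.

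Members lie close together in the genome. In the RefSeq gene table of GRCm38.p6, 62 of the 82 members fell into 10 groups of 2 or more members with no gap over 1000000 bases. The CYP2C group held 12 members, of which 2 had a mean of 6 or more, and the group of Cyp2a, Cyp2b, Cyp2f2, Cyp2g1, Cyp2s1 and Cyp2t4 held 11, of which 4 did. Next came the Cyp2d group (3 of 9), the Cyp4f group (4 of 7), the Cyp2j group (2 of 6), the group of Cyp4a, Cyp4b1 and Cyp4x1 (1 of 5) and a Cyp3a group (0 of 5). Probe values differed widely within a group: Cyp2f2 had a mean of 13.10, and Cyp2a12 and Cyp2t4 of the same group had means of 5.02 and 4.99.

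No P450 gene passed the test in any of the 5 comparisons. Limma, fitted over 14953 genes with Benjamini-Hochberg adjustment at 0.05, called 0 of the 33 members for mepenzolate against vehicle at 7 h, at 25 h or over both times, for 25 h against 7 h, or for the difference of the mepenzolate effect between the times. Over all genes tested the calls were 0% in each treatment comparison and in the difference, and 0.221% (33 genes) for time. At an unadjusted p under 0.05 the members numbered 1 at 7 h (3.03%, against 2.39% of all genes tested), 6 at 25 h (18.2%, against 4.01%) and 7 over both times (21.2%, against 3.77%). For 25 h against 7 h they numbered 3 (9.09%, against 8.97%), and for the difference of effects 2 (6.06%, against 2.68%). The counts over both times rest on the arrays of the 2 single times and add no separate evidence. They include Cyp4f13, Cyp4f16 and Cyp4f39, and the count at 25 h includes Cyp4f15 and Cyp4f39. These paralogs lie in 1 gene group, so the counts are not of independent genes. The 95% intervals of single differences were wide, with a median half-width of 0.29 log2 at each time and of 0.20 over both times. At 25 h the interval lay wholly within 0.5 log2 of 0 for 23 of the 33 members, and at 7 h for 21. Among the others, changes past 0.5 are therefore within the interval.

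The airway P450 Cyp2f2, which activates naphthalene in mouse club cells, had the highest probe value of the members. It read 13.14 and 13.15, 13.11 and 13.04, 13.07 and 12.96, and 13.16 and 13.15 in the 4 groups, from 12.96 to 13.16 over the 8 arrays. The highest value of any probe was 13.85 to 13.98 by array, and near the top of the scale array values can be compressed, so a narrow range here does not show a steady RNA level. The mepenzolate arrays lay below the vehicle arrays at 7 h and above them at 25 h, and the 25 h difference was 0.14 ± 0.08 (95% interval -0.04 to 0.32), or 0.085 without vehicle array 2 and 0.20 without vehicle array 1. The difference of effects between the times was 0.21 ± 0.11, with an adjusted p of 0.9999 by limma. On the second mepenzolate array at 7 h, where the club cell list was lowest, Cyp2f2 stood at 13.04 and Scgb1a1 at 13.30, while the airway secretory gene Bpifa1 stood at 9.32 against 11.30 on its partner. The part of cell makeup in the Cyp2f2 values was not tested.

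Cyp2b10, the phenobarbital-inducible member of its cluster, read 11.92 and 11.87, 11.83 and 11.90, 11.80 and 11.83, and 11.70 and 11.88, with overlap between vehicle and mepenzolate at both times. Cyp4b1, a lung P450 that activates furan toxins such as ipomeanol, read 11.83 and 11.82, 11.68 and 11.63, 11.71 and 11.68, and 11.48 and 11.80. Both its mepenzolate arrays lay below both vehicle arrays at 7 h, and the groups overlapped at 25 h. Cyp2s1, found in airway epithelium, read 10.08 and 10.11, 10.10 and 9.56, 10.27 and 10.08, and 10.27 and 10.01. Its lowest value fell on the second mepenzolate array at 7 h, the array with the lowest club and ciliated lists, and 7 of its values lay between 10.01 and 10.27. Its difference between times, 0.20 ± 0.12, became 0.060 without that array.

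Among the 33 members above 6, Cyp2e1 and Cyp2d22 had the widest ranges over the arrays, and their widest gap within a group was in vehicle lungs at 7 h. Of the dim members, Cyp2c67 ranged from 3.76 to 4.87. Cyp2e1, which oxidises ethanol and other small molecules, read 8.14 and 9.27, 8.78 and 8.76, 8.50 and 8.20, and 8.62 and 8.18, so that the lowest and the highest value of the 8 were the 2 vehicle arrays at 7 h, 1.13 apart. The same arrays held the lowest and the second-highest mean deviation of the 4 adipocyte markers (-0.49 and 0.22, -0.10 and -0.01, -0.04 and -0.04, and 0.48 and -0.01 in the 4 groups), and the part of fat tissue in Cyp2e1 was not tested. Its difference of 25 h against 7 h was -0.36 ± 0.23, and leaving out vehicle array 1 or 2 of 7 h made it -0.65 or -0.080.

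Cyp2d22, the lung-expressed mouse relative of human CYP2D6, read 9.46 and 10.40, 10.30 and 10.23, 10.42 and 10.55, and 10.26 and 10.26. A single array, the first vehicle array at 7 h, stood at 9.46, and the other 7 lay between 10.23 and 10.55. At 25 h both mepenzolate arrays lay below both vehicle arrays. The same array was lowest for Cyp2d11, a dim neighbour, at 3.99 and 4.62, 4.61 and 4.70, 4.84 and 5.03, and 4.80 and 4.68, and for Cyp2d40 at 6.46 and 7.12, 6.85 and 7.32, 7.46 and 7.03, and 6.80 and 7.16. Of the other 6 genes of the group, Cyp2d13 also had its lowest value there, at 4.98 in a range of 4.98 to 5.27, and the other 5 had theirs on other arrays. Among these, Cyp2d10 read 6.04 and 5.92, 5.78 and 6.06, 6.25 and 6.25, and 5.94 and 6.23 and Cyp2d26 read 5.77 and 5.79, 5.84 and 5.87, 5.87 and 5.78, and 5.62 and 5.80. The mepenzolate difference of Cyp2d22 at 7 h was 0.33 ± 0.25, and without that array it turned to -0.14. Its difference of effects was -0.56 ± 0.35, or -0.084 without the array, and that of Cyp2d40 was -0.56 ± 0.36, or -0.23 without it. The Cyp2d22 values at 7 h rest on 1 array, and that of Cyp2d40 ran from -0.89 to -0.23 as single arrays were left out. Time differences of 0.28 ± 0.18 for Cyp2d22 and 0.22 ± 0.09 for Cyp2d10 did not pass, and the former was 0.042 without the array.

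**Figure D2:**
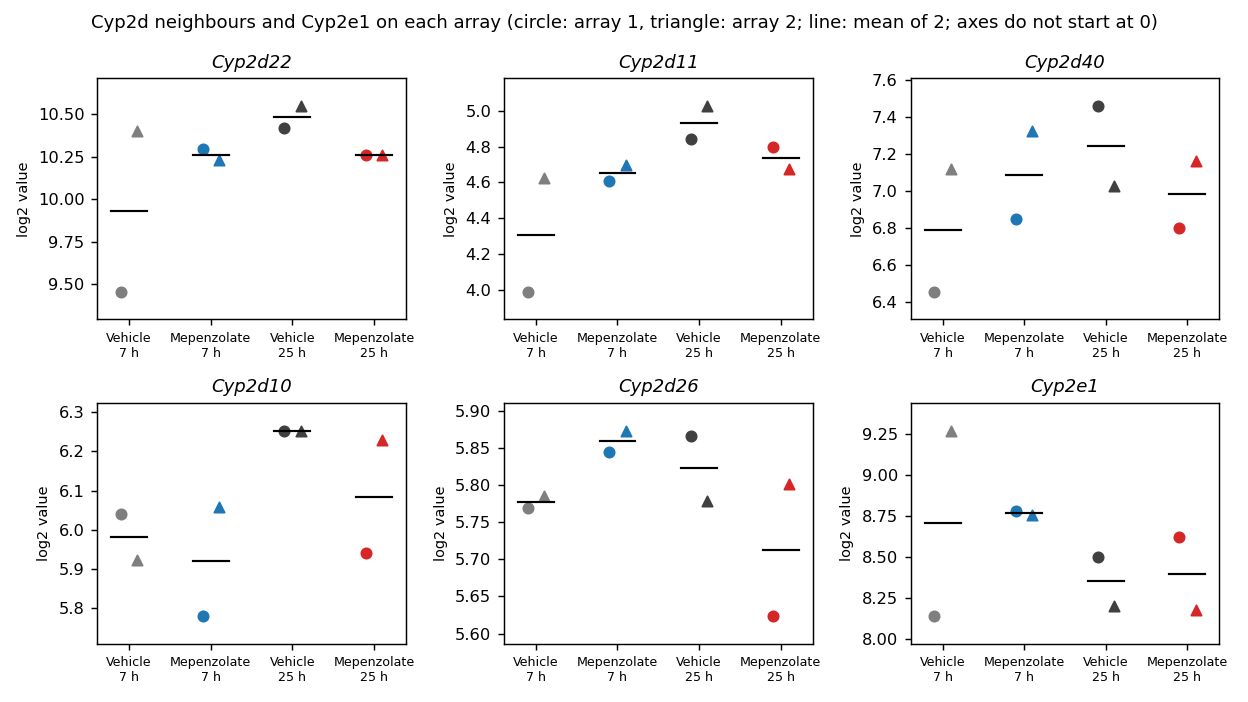
Log2 values of 5 neighbouring Cyp2d genes and of Cyp2e1 on each array, by group, with circles for array 1, triangles for array 2 and a line at the mean of both; axes do not start at 0. The first vehicle array at 7 h is the lowest point for Cyp2d22 (9.46), Cyp2d11 (3.99), Cyp2d40 (6.46) and Cyp2e1 (8.14), and not for Cyp2d10 or Cyp2d26.

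No Cyp4f gene passed the test, but 3 of the 7 members of their group stood on the same side of vehicle at each time. In gene order Cyp4f39 and Cyp4f16 come first, and Cyp4f13 lies at the other end, past Cyp4f37, Cyp4f40, Cyp4f15 and Cyp4f14. These enzymes hydroxylate leukotrienes and fatty acids. Cyp4f13, Cyp4f16 and Cyp4f39 were lower in mepenzolate than in vehicle lungs at both times with no overlap. Cyp4f16 read 8.25 and 8.41, 7.83 and 7.90, 8.24 and 8.35, and 8.22 and 7.98, and its differences were -0.47 ± 0.11 at 7 h and -0.33 ± 0.07 over both times. Its values at 7 h stood 1.38 times lower with mepenzolate, the smallest p of the members at 7 h, with an adjusted p of 1 by limma. At 25 h the nearest arrays were 8.24 in vehicle and 8.22 in mepenzolate lungs.

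Cyp4f39, the mouse counterpart of a human skin enzyme that hydroxylates very long fatty acids, read 7.43 and 7.06, 7.04 and 6.89, 7.49 and 7.34, and 6.98 and 6.76. Its difference was -0.55 ± 0.14 at 25 h (adjusted p = 0.979 by limma), -0.28 ± 0.14 at 7 h and -0.41 ± 0.10 over both times. The 7 h value was -0.093 without the first vehicle array and -0.46 without the second. At 7 h the nearest arrays of the groups were close, 7.06 in vehicle and 7.04 in mepenzolate lungs. Cyp4f13 read 8.53 and 8.52, 8.43 and 8.36, 8.45 and 8.45, and 8.27 and 8.32, a small difference of -0.15 ± 0.05 over both times on a gene whose arrays agreed closely. Over both times the 4 vehicle and 4 mepenzolate arrays did not overlap for these 3 genes, all lower, 9.09% of the members, against 1.81% of all genes tested that were lower in this way. Of the 33 members 0 were higher in this way. The share is given only for the direction that held members, so it is not a test. The exact two-sided permutation p of each was 0.0286, the smallest that 4 arrays against 4 can give, and adjusted limma p was 0.999. Every gene without overlap has this permutation p, so it restates the lack of overlap and adds no evidence.

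Cyp4f15, which lies between Cyp4f16 and Cyp4f13 in gene order, stood apart from them at 25 h. It read 7.50 and 7.45, 7.41 and 7.15, 7.22 and 7.22, and 7.61 and 7.44, lower with mepenzolate at 7 h (-0.20 ± 0.11) and higher at 25 h (0.30 ± 0.11). The 7 h value was -0.071 without the second mepenzolate array. The difference of effects, 0.50 ± 0.15, had the smallest p of the members in that comparison (adjusted p = 0.9999 by limma). The dim member Cyp4f14 read 5.65 and 5.92, 5.50 and 5.77, 5.89 and 5.66, and 5.42 and 5.52, with mepenzolate below vehicle at 25 h and overlap at 7 h. The other dim members of the group, Cyp4f37 (mean 5.32) and Cyp4f40 (mean 4.96), overlapped between treatments at both times. Cyp4f18, which lies outside the group and inactivates leukotriene in neutrophils, read 7.34 and 6.94, 7.34 and 7.49, 7.27 and 7.43, and 7.39 and 7.46. It stood higher at 7 h by 0.27 ± 0.13 with overlapping arrays, and by 0.073 without the second vehicle array.

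Promoter sequences of the 3 Cyp4f genes with the lower values are shown because these neighbours stood on the same side. They run from 250 bases before to 50 after the start site, 5′ to 3′ on the gene's strand, from RefSeq on GRCm38.p6. Capitals mark GCGTG or its reverse complement CACGC, the core of the xenobiotic response element bound by the aryl hydrocarbon receptor. The windows are chr17:32536307-32536606, plus strand, for Cyp4f16, chr17:32452473-32452772, plus strand, for Cyp4f39, and chr17:32947312-32947611, minus strand, for Cyp4f13.
Cyp4f16: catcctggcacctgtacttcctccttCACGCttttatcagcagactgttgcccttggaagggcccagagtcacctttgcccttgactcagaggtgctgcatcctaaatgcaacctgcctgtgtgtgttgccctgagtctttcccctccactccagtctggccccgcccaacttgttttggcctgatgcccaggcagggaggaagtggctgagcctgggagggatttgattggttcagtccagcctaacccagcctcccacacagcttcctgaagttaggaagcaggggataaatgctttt
Cyp4f39: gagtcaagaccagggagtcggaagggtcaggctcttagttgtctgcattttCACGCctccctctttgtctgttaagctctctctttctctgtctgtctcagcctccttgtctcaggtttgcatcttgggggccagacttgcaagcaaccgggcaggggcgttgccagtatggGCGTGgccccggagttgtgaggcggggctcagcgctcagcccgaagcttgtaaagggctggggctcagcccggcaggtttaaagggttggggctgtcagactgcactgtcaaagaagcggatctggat
Cyp4f13: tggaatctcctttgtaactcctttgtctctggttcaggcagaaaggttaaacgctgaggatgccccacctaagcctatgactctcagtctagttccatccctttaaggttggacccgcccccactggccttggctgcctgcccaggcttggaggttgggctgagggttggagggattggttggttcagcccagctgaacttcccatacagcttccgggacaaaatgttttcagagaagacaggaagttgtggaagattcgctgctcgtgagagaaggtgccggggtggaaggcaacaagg
The core stood once in Cyp4f16, at 2 places in Cyp4f39 and nowhere in this window of Cyp4f13. RefSeq promoters were matched for 63 of the 82 members, 71 windows in all. Of these, 22.5% held the core on either strand, against 32.4% of all 32851 windows in the table. A match describes the letters and is not a binding site.

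**Figure D3:**
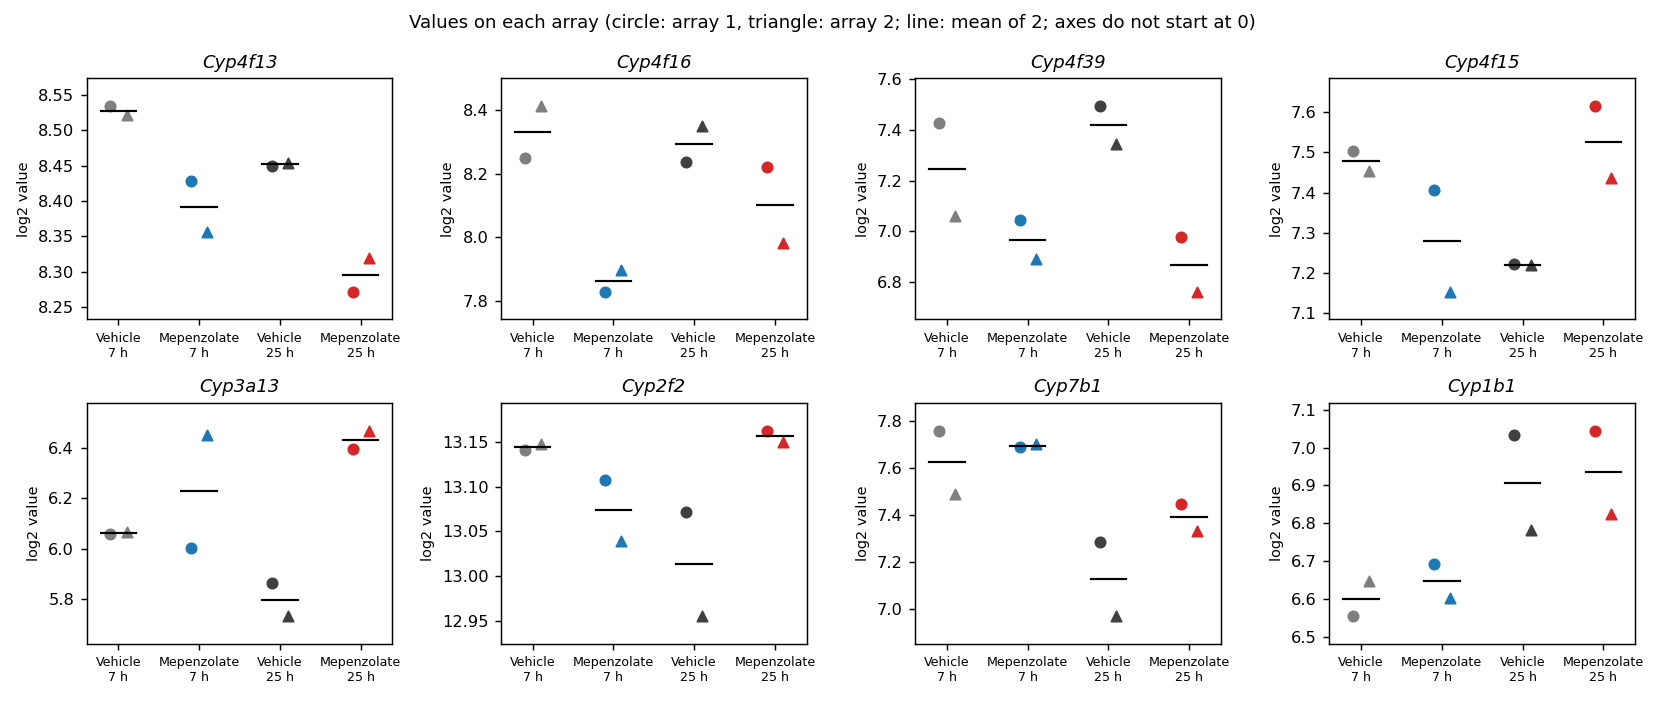
Log2 values of 8 P450 genes on each array, by group, with circles for array 1, triangles for array 2 and a line at the mean of both; axes do not start at 0. Mepenzolate points lie below vehicle points at both times for Cyp4f13, Cyp4f16 and Cyp4f39. Cyp3a13 separates at 25 h (6.40 and 6.47 against 5.86 and 5.73), and Cyp7b1 and Cyp1b1 separate by time.

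Cyp3a13, of the CYP3A drug-metabolising enzymes, had the largest treatment difference of the 33 members. It read 6.06 and 6.07, 6.004 and 6.45, 5.86 and 5.73, and 6.40 and 6.47, so both mepenzolate arrays at 25 h lay above both vehicle arrays. Cyp3a13 is dim, with a mean of 6.13, and both vehicle values at 25 h lay below the filter level of 5.93. The difference at 25 h was 0.63 ± 0.14, 1.55-fold (95% interval 0.32 to 0.95), with an adjusted p = 0.979 by limma. At 7 h it was 0.17 ± 0.14. Without the second mepenzolate array, which also had the high liver genes, it was -0.058. Over both times it was 0.40 ± 0.10, and the difference of effects was 0.47 ± 0.19, or 0.25 and 0.69 without the first and second mepenzolate array of 7 h. The other 5 CYP3A members had means of 3.37 to 4.64 and were not tested. Cyp3a11, a main CYP3A enzyme of liver, read 3.47 and 3.54, 3.28 and 3.77, 3.48 and 3.36, and 3.34 and 3.56, with its highest value on the array with high albumin. Most genes below the filter level (79.2%) were higher on that array than on its partner.

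Some P450 genes that liver also makes had their highest value on that array, and others did not. The genes named here were picked, and the members highest on that array were not counted. Cyp2c23 read 6.47 there and Cyp2c37 6.15, the highest of the 8 for each, while Cyp2e1 at 8.76 and Cyp8b1 at 6.23 lay within the range of the other arrays. Cyp1a2 read 5.34 there and 4.89 to 5.29 elsewhere. Cyp7a1, the rate-limiting enzyme of bile acid synthesis, read 3.97 there and had a mean of 3.82. Cyp2a12 read 4.88 there and 5.46 on its partner. Cyp2c29 read 4.07 there and had its highest value, 4.17, on the first mepenzolate array at 25 h. Cyp27a1 read 8.40 there in a range of 8.39 to 8.66. The 49 dim members were higher on it than on its partner in 41 cases (83.7%), and of all 4984 genes below the filter level 79.2% were. Their gap between these 2 arrays had a median size of 0.29, against 0.19 over all such genes.

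Arachidonate epoxygenases and hydroxylases were represented by Cyp2j6, Cyp2j9 and Cyp2u1. Cyp2u1, which hydroxylates long-chain fatty acids, read 6.99 and 6.90, 6.81 and 6.76, 6.95 and 6.77, and 6.66 and 6.64 and was lower with mepenzolate at both times without overlap. The differences were -0.16 ± 0.09 and -0.21 ± 0.09, and the latter was -0.12 or -0.30 when vehicle array 1 or 2 was left out. With Cyp4f13, Cyp4f16 and Cyp4f39 it made 4 of 33 members (12.1%) lower at both times without overlap, against 4.11% of all genes tested. No member (0 of 33) was higher at both times without overlap, and only the pattern that held members is set against all genes. With the times pooled its groups overlapped, the second vehicle array at 25 h (6.77) lying below the first mepenzolate array at 7 h (6.81) (-0.19 ± 0.06 over both times). Cyp2j6, an epoxygenase of arachidonic acid, read 7.84 and 7.77, 8.19 and 7.76, 7.62 and 7.84, and 8.14 and 7.69, and Cyp2j9 read 7.48 and 7.13, 7.29 and 7.04, 6.99 and 7.34, and 7.33 and 7.03. In both genes vehicle and mepenzolate arrays overlapped at each time.

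The 3 CYP2C members above 6, Cyp2c66, Cyp2c23 and Cyp2c37, ranged from 5.83 to 6.47 over all arrays and overlapped between treatments at both times. Cyp2b9 ranged from 6.24 to 6.35 and Cyp2w1 from 6.15 to 6.32, the former without overlap at 7 h and the latter at 25 h. At 7 h 8 members were lower and 2 higher in mepenzolate lungs without overlap (30.3%, against 23.7% of all genes tested, 15.5% lower and 8.26% higher). At 25 h 10 were lower and 4 higher (42.4%, against 36.6%, 22.4% lower and 14.2% higher). Lower at 7 h and higher at 25 h without overlap were Cyp2f2 and Cyp4f15 (6.06%, against 1.71%). The reverse pattern held 0 members. This share too is given only for the pattern that held members. The median difference of the 33 members was -0.045 at 7 h and -0.026 at 25 h, beside -0.013 and -0.023 over all genes tested.

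**Figure D4:**
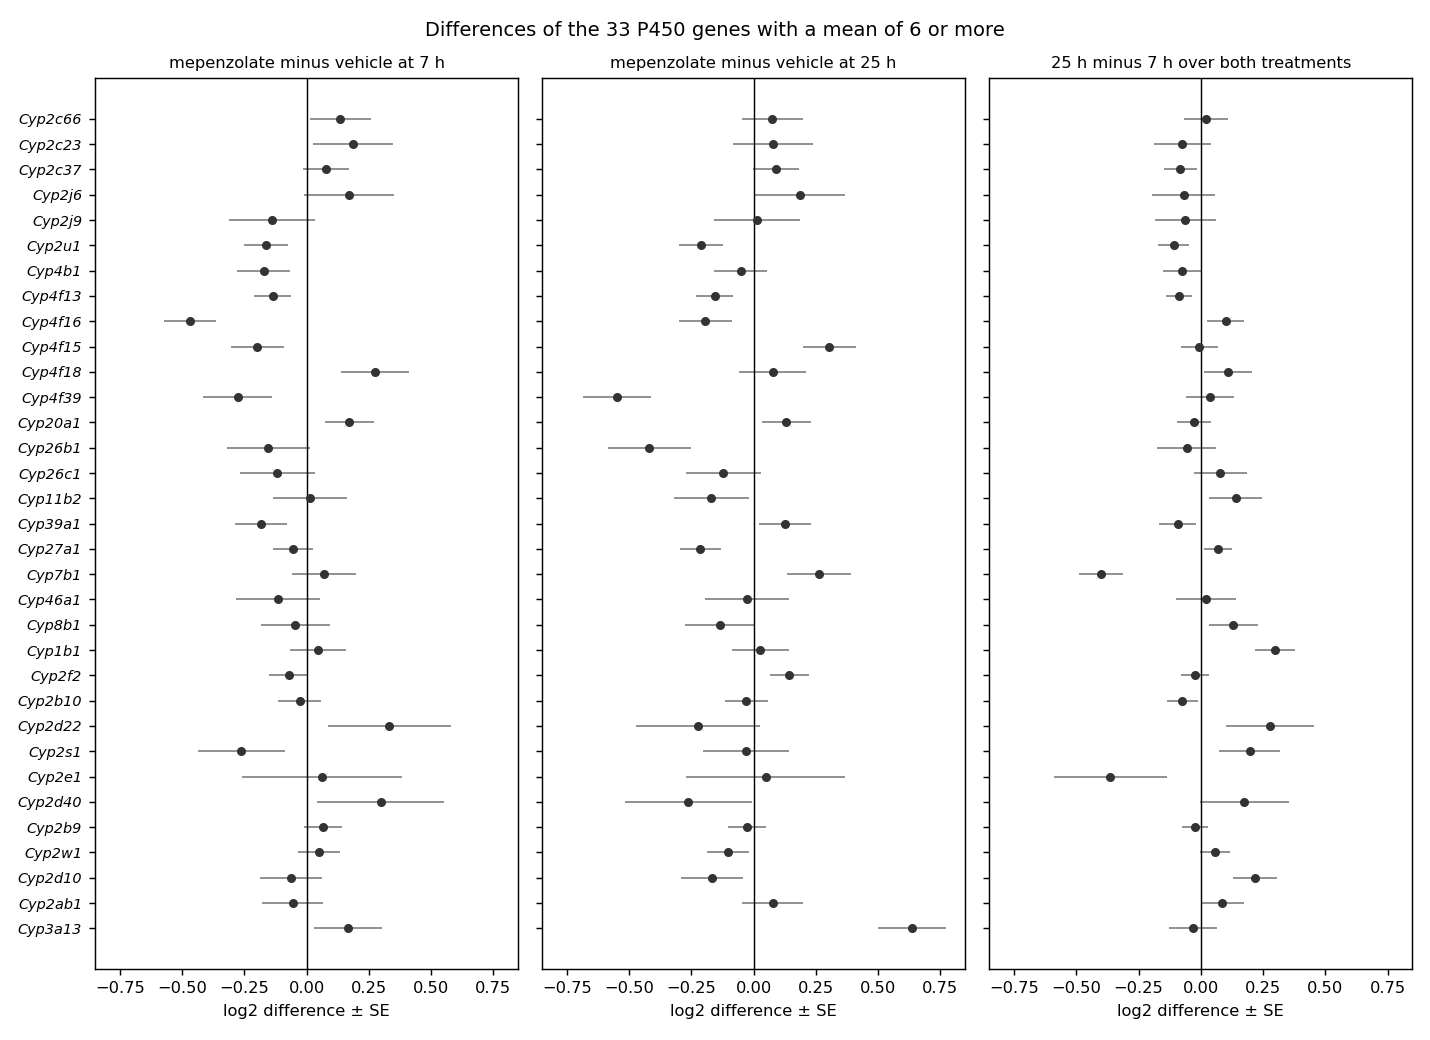
Log2 differences with moderated standard errors for the 33 P450 genes with a mean of 6 or more, in 3 comparisons of limma (2 arrays against 2 at 7 h and at 25 h, 4 against 4 for time). Genes are grouped by role. Cyp3a13 (0.63) and Cyp4f39 (-0.55) lie farthest out at 25 h, and Cyp7b1 (-0.40) lies lowest between the times.

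Retinoic acid is cleared by the CYP26 enzymes. Cyp26b1 read 7.41 and 7.35, 7.09 and 7.36, 7.19 and 7.72, and 6.99 and 7.08, and both mepenzolate arrays at 25 h lay below both vehicle arrays. The difference was -0.42 ± 0.17. Leaving out vehicle array 1 made that difference -0.69, and leaving out vehicle array 2 made it -0.15. Cyp26c1 read 6.73 and 6.88, 6.49 and 6.88, 6.80 and 6.97, and 6.62 and 6.91, with overlap at both times, and Cyp26a1 had a mean of 5.24.

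Of the sterol enzymes none passed by treatment. Cyp27a1, the mitochondrial sterol hydroxylase that also starts the acidic bile acid route, read 8.55 and 8.45, 8.49 and 8.40, 8.66 and 8.63, and 8.39 and 8.48. Both mepenzolate arrays were lower at 25 h (difference -0.21 ± 0.08), and the difference of effects was -0.16 ± 0.12. Cyp39a1, which acts on hydroxycholesterol from brain and other tissues, read 9.20 and 9.20, 9.10 and 8.93, 9.004 and 8.91, and 9.20 and 8.96. Its mepenzolate arrays lay below vehicle at 7 h and overlapped at 25 h, with a difference of effects of 0.31 ± 0.15, or 0.19 and 0.43 without the first and second mepenzolate array of 25 h. The orphan Cyp20a1, with no settled substrate, read 8.95 and 9.06, 9.18 and 9.18, 8.97 and 9.03, and 9.25 and 9.01 and stood higher with mepenzolate by 0.17 ± 0.10 at 7 h. Cyp46a1, the cholesterol hydroxylase of neurons, ranged from 6.16 to 6.68, Cyp8b1 of bile acid synthesis from 5.99 to 6.38 and the aldosterone synthase gene Cyp11b2 from 6.29 to 6.73. Treatment groups overlapped in these except for Cyp11b2 at 25 h, where both mepenzolate arrays were lower.

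The comparison of 25 h with 7 h pooled 4 arrays against 4. Cyp7b1, which hydroxylates oxysterols such as those that guide immune cells, had the smallest p of the members. It read 7.76 and 7.49, 7.69 and 7.70, 7.29 and 6.97, and 7.45 and 7.33, and all 4 values at 25 h lay below all 4 at 7 h. The difference was -0.40 ± 0.09, with an adjusted p = 0.157 by limma. The exact two-sided permutation p of 0.0286 restates the lack of overlap, since 4 arrays against 4 without overlap always give it. At 25 h it stood higher in mepenzolate than in vehicle lungs (0.26 ± 0.13), or by 0.10 without the second vehicle array.

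Cyp1b1, an aryl hydrocarbon receptor target that oxidises estrogens and polycyclic hydrocarbons, stood on the other side. It read 6.55 and 6.65, 6.69 and 6.60, 7.03 and 6.78, and 7.05 and 6.82, all 4 values at 25 h being above all 4 at 7 h. The difference was 0.30 ± 0.08 (adjusted p = 0.239 by limma). Its exact permutation p of 0.0286 likewise restates the lack of overlap. Treatment groups overlapped at both times. These 2 genes were the members without overlap between the times (6.06%, against 6.69% of all genes tested). Cyp1a1, the classic target of that receptor, read 5.92 and 5.95, 5.95 and 5.90, 5.90 and 5.70, and 6.004 and 6.03, and Cyp1a2 had a mean of 5.18. Neither was bright enough to be tested.

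The promoters of Cyp1b1 and Cyp1a1 are shown because both genes are known targets of the aryl hydrocarbon receptor and both windows hold its core motif. The presence of the core was thus fixed by the choice and is not a result. Cyp1a2, the other CYP1 member, was not among the 15 members with the core in a matched window. Of the member windows 22.5% held the core, against 32.4% of all windows. The windows are chr17:79715012-79715311, minus strand, for Cyp1b1, and chr9:57697363-57697662, plus strand, for Cyp1a1, from RefSeq on GRCm38.p6, with the core in capitals.
Cyp1b1: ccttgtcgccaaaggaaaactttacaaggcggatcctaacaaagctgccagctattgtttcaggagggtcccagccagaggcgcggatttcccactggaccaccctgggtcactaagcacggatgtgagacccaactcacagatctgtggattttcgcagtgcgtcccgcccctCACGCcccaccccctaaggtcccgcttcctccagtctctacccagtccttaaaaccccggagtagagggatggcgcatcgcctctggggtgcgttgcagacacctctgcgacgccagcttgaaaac
Cyp1a1: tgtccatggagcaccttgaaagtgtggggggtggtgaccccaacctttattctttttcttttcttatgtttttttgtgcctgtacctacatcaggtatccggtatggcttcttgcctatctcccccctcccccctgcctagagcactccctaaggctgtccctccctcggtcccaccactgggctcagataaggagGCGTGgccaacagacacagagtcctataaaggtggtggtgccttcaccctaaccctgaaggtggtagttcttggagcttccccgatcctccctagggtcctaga
Each window held the core once, 76 bases before the start site in Cyp1b1 and 54 before it in Cyp1a1, counted to the first base of the core.

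Some regulators of P450 genes fell between the times. Of 28 regulators listed, 25 were on the array and 20 were tested, and 3 passed, all lower at 25 h. Of all 14953 genes tested 33 passed (0.221%), 27 of them lower. The list was chosen with earlier results of these data known, so its count is not a result about regulators as a set. The 3 were the PAR bZIP factors Tef (-0.77 ± 0.06), Hlf (-1.21 ± 0.11) and Dbp (-1.76 ± 0.19). These are clock output factors that act on xenobiotic enzymes in liver and kidney. Limma's adjusted p was 0.00276, 0.00599 and 0.0101. Leaving out single arrays ended the Dbp call in 4 of 8 cases (either vehicle array or the second mepenzolate array at 7 h, or the second vehicle array at 25 h), with adjusted p up to 0.0803 by limma, and kept its difference between -2.01 and -1.50. Dbp read 10.02 and 10.09, 9.91 and 10.06, 8.10 and 8.03, and 8.97 and 7.96, with the 25 h arrays below every 7 h array and the first mepenzolate array the highest at 25 h.

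PAR bZIP factors bind the D-box, searched here as TTATGTAA or TTACGTAA on both strands. None of the 71 member promoters held it, against 1.06% of all windows. For a motif this rare, 71 windows are too few to read a count of 0 as a result. No window was matched for Cyp7b1, Cyp2d22, Cyp2u1 and some other members, so their promoters were not searched. The E-box CACGTG of the core clock stood in 1 member promoter, that of Cyp2j6 (1.41%, against 7.15% of all windows). Cyp2j6 overlapped between the times.

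Receptors that sense foreign compounds showed no treatment call. None of the 20 regulators passed limma at 7 h or 25 h, and none had an unadjusted p under 0.05 there. The aryl hydrocarbon receptor gene Ahr read 10.27 and 10.29, 10.57 and 10.34, 10.50 and 10.47, and 10.56 and 10.43, and its difference at 7 h was 0.18 ± 0.10. Rxra, the partner of nuclear receptors, stood at -0.17 ± 0.08 at 7 h, and Ppara at -0.19 ± 0.09. The pregnane X receptor gene Nr1i2 and the constitutive androstane receptor gene Nr1i3 had means of 5.81 and 5.72 and were too dim to be tested.

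The electron transfer and heme genes tested gave no call. Of 12 electron transfer genes listed, 9 had a probe used here, and none of these 9 encodes P450 reductase or adrenodoxin reductase. P450 reductase, the donor of most microsomal members, was therefore not covered. Of 8 tested electron transfer genes 0 passed in any comparison. At 7 h 2 were higher, beside 6513 of all 14953 genes tested, and at 25 h 6 were, beside 6170. Cytochrome b5, Cyb5a, had the smallest p at 7 h (-0.14 ± 0.09) and Pgrmc1, a heme-binding partner of P450s, at 25 h (0.10 ± 0.08). Of 12 tested heme genes 0 passed. Alas1, the rate-limiting enzyme of heme synthesis outside red cells, read 10.90 and 10.83, 10.85 and 10.71, 10.51 and 10.28, and 10.59 and 10.54, a difference between times of -0.34 ± 0.07 that did not pass (adjusted p = 0.129 by limma). Cpox, a later enzyme of the pathway, stood at -0.22 ± 0.07 between the times.

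Epoxide hydrolases, which open the epoxides that P450s make, were represented by 3 tested genes with 0 calls. Ephx1, the microsomal enzyme, read 10.45 and 10.49, 10.31 and 10.25, 9.93 and 9.95, and 10.30 and 10.18, and its difference between times was -0.28 ± 0.06 (adjusted p = 0.119 by limma). It stood lower with mepenzolate at 7 h (-0.19 ± 0.08) and higher at 25 h (0.30 ± 0.08), without a call. The 3 P450 genes outside the symbol pattern on the list were Ptgis, Tbxas1 and Cyp51. Ptgis, prostacyclin synthase, read 10.29 and 10.38, 10.12 and 10.26, 10.15 and 10.05, and 10.10 and 9.83 and stood at -0.23 ± 0.08 between the times. Tbxas1, thromboxane synthase, ranged from 7.05 to 7.31, and Cyp51 of cholesterol synthesis from 7.20 to 7.61. None of these 3 passed limma in any comparison.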

How the data were processed

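The authors deposited log2 expression values of 34760 probes on 8 arrays, and the submitters' processing notes name RMA, without a version. This method corrects background, brings arrays to 1 distribution and combines the probes of a set, and it narrows differences of dim genes. Of the probes 21640 had 1 gene symbol, 1321 several and 11799 none in the platform annotation. The probe with the highest mean stood for each of 19937 genes, and all 82 members matched the RefSeq table by Entrez identifier. Tests covered genes whose 8-array mean reached the 25th percentile of all genes (log2 5.93).

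Limma 3.58.1 in R 4.3.3 fitted 1 mean per group over all 8 arrays (4 residual and 4.09 prior degrees of freedom), with Benjamini-Hochberg adjustment over 14953 genes at 0.05. Errors are moderated standard errors. Exact permutation tests cannot go below 0.333 for 2 arrays against 2 or 0.0286 for 4 against 4. Array number limits the precision. The fit was tested on simulated data with known changes for mepenzolate against vehicle at 7 h. It recovered 72% of changes of 0.5 log2, and 12 of its 195 calls were unchanged genes. The simulated noise was independent between arrays and took its size from the fit itself. It held no shifts of a whole array, so these shares do not give the power for the real arrays. Alternatives were other scaling, filters, probe averaging, variance models, array weights, a replicate block, fits on 2 groups and leaving out each array.

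Members, roles and lists were chosen with earlier results of these data known. Values on every array are given for the 20 members with the highest means and, in each comparison, the 4 members of smallest unadjusted p in each direction. Up to 3 genes per partner list could be named by p. Array values of Cyp1a1, Cyp26c1, Cyp2d11, Cyp2d26, Cyp3a11 and Cyp4f14 were added after their values were seen. Marker lists for alveolar, endothelial, macrophage, fibroblast and cardiac cells were computed: the mean deviation of alveolar type 2 markers was within -0.04 to 0.03, alveolar type 1 -0.05 to 0.09, endothelial -0.11 to 0.09, macrophage -0.10 to 0.10, fibroblast -0.10 to 0.13 and cardiac -0.38 to 0.40.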

Additional observations from a re-analysis of the deposited data

How the results depend on the processing

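Limma called 0 P450 members in all 5 comparisons under each of the 17 alternatives that applied to the comparison, including the replicate block. The smallest adjusted p of a member under any alternative was 0.0691, for Cyp2d22 between the times without the second vehicle array at 7 h, and 0.425 at 7 h, 0.471 at 25 h, 0.210 over both times and 0.468 for the difference of effects. With the replicate block the smallest were 0.943 at 7 h, 0.657 at 25 h, 0.270 over both times, 0.0710 between the times and 0.9999 for the difference of effects. The replicate numbers were not shown to pair the samples: deviations of same-numbered arrays correlated at -0.021 to 0.396 over genes, over 0.1 in 3 of 6 pairs. Members at an unadjusted p under 0.05, of the 33 or 35 tested, ranged over the alternatives with a filter from 1 to 5 at 7 h, 3 to 7 at 25 h, 4 to 9 over both times, 2 to 5 between the times and 1 to 3 for the difference of effects. With no filter, of 82 members, they numbered 1, 9, 8, 5 and 4.

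Of 640 values for 43 named differences, 638 kept their direction. Those that turned were Cyp2d22 at 7 h without the first vehicle array (-0.14, and 0.81 without the second) and Cyp3a13 at 7 h, which was -0.058 without mepenzolate array 2 and 0.39 without array 1. Leaving out 1 array moved 21 of the 43 by over 1.5 times at least once. Median centring shifted an array's median by at most 0.033, and quantile normalization by at most 0.017. A group left with 1 array is assumed to vary like the others. The call of Dbp between the times ended without either vehicle array at 7 h, the second mepenzolate array at 7 h or the second vehicle array at 25 h, and those of Tef and Hlf were kept under every alternative. Signal limits what dim genes can show: the 49 members below the filter level entered only the alternative with no filter, which called 0 of the 82.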
